A study of Sus scrofa with 8 samples.

Results

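Axon guidance ligands and receptors were examined in developing pig somites and myotome. The group comprised 67 of the 21301 genes in the count tables, taken by gene symbol alone: 34 ligands (20 semaphorins, 7 ephrins, 4 netrins and 3 slits) and 33 receptors (8 plexins, 2 neuropilins, 9 EPHA and 5 EPHB receptors, 4 ROBO receptors, and 5 netrin receptors, namely DCC and the UNC5 family). The study followed the first steps of pig skeletal muscle formation by single-cell RNA sequencing of somites (embryonic days E16, E18 and E21) and, at E28, myotome. ZZ embryos were Tibetan pigs and DZ embryos came from a cross of Duroc and Tibetan pigs, with no transgene or treatment in either. Each of the 8 libraries pooled 5 embryos of 1 sow and was the only library of its stage and breed. Groups were therefore early (E16 and E18, 4 libraries) and late (E21 and E28, 4 libraries). The p-values of late against early measure the spread between these libraries, where stages of a group also differ. Other comparisons had the library or the stage as a block, and their p-values measure the spread left after it.

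Guidance cues were first known for steering growing axons and migrating neural crest cells past the segmented somite. Secreted semaphorins bind neuropilins that signal through plexins, while membrane-bound semaphorins bind plexins directly. Ephrins on one cell bind EPH receptors on a neighbour, and both cells can respond. Slits repel through ROBO receptors, and netrins attract through DCC or repel through UNC5 receptors. Blood vessels use the same families, with PLXND1, UNC5B, ROBO4 and the EFNB2 and EPHB4 pair as known vascular members.

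A total of 74147 cells passed the limits on genes, UMIs (distinct RNA molecules), mitochondrial share and doublet score, 5436 to 10956 per library, with 39887814 to 57796312 UMIs and a median of 3404.5 to 6192 UMIs per cell. The E16-ZZ library stood apart: 39.16% of its barcodes exceeded the mitochondrial limit, against at most 9.15% in the others, so results were also computed without it. Any pair of libraries shared 13 to 38 barcodes, at most 0.404% of the smaller library. Gates took cells by marker genes that include none of the 67: 3426 sclerotome (precursors of the vertebrae), 4806 muscle, 1417 neural crest, 4797 neuron and 3523 endothelial cells, with 950 erythroid cells as background. The leading markers were PAX1 and PAX9 for sclerotome, MYF5, MYOD1 and MYOG for muscle, SOX10 and CDH19 for crest, STMN2 and ELAVL4 for neurons and CDH5 and PECAM1 for endothelial cells. The summed markers of a gate were high in that gate (sclerotome list, 507 to 855 CPM in sclerotome cells and at most 20.6 CPM elsewhere). This follows from the gating. Marker lists of other cells exceeded a gate's own list in some libraries. At E16 (ZZ and DZ) the crest list summed to 585 and 603 CPM in crest cells and the epithelial list to 771 and 1356 CPM. In E16 sclerotome cells the epithelial list stood at 564 and 912 CPM, beside 562 and 576 CPM of the sclerotome list. In E18 muscle cells the muscle list summed to 1354 and 1371 CPM and the neural progenitor list to 1642 and 1753 CPM. Further lists are given beside the results of each gate. Levels are CPM, the summed UMIs of a gene scaled to a common library total. Each molecule is counted once at its 3' end, so levels were not divided by gene length and are compared within a gene, not between genes.

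In whole libraries, the sum of guidance transcripts rose with stage, though not every family did. All 67 genes together made up 789 to 1032 CPM in early and 1230 to 1412 CPM in late libraries. Semaphorins summed to 117 to 138 CPM in early and 272 to 318 CPM in late libraries, EPHA receptors to 31.8 to 75.9 and 116 to 208 CPM, and ROBO receptors to 58.4 to 103 and 150 to 194 CPM. The neuropilins went the other way, from 85.5 to 121 CPM in early to 43.3 to 68.6 CPM in late libraries. EPHB receptors summed to 43.7 to 67.1 CPM in early and 71.5 to 127 CPM in late libraries. The periods overlapped for ephrins (220 to 269 and 251 to 324 CPM), plexins (68.8 to 90.5 and 66.6 to 77.1 CPM), slits (56.7 to 93.3 and 69.6 to 119.7 CPM) and netrins (14.4 to 39.7 and 21.2 to 37.4 CPM). These family sums were not tested. Netrin receptors stayed between 39.1 and 56.8 CPM. Late against early, 28 of the 61 members tested passed the adjusted threshold (edgeR quasi-likelihood test over all genes), 24 higher and 4 lower, where 34.2% of all 14339 genes passed (17.1% higher and 17.1% lower). The median log2 fold change was 0.48 over the members and 0.026 over all genes. Without E16-ZZ, 22 members passed (23.5% of all genes), and without both E16 libraries 10 did (8.87%).

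The receptor EPHA3, which guides motor and other axons by repulsion, changed most. Its level was 0.518 and 0.233 CPM at E16 (ZZ and DZ), 2.88 and 3.67 CPM at E18, 36.4 and 60.4 CPM at E21, and 66.6 and 107 CPM at E28. Every stage lay above the one before in both breeds, and late exceeded early by 5.15 ± 0.83 (log2, SE; adjusted p = 0.004512). EPHA5, a related receptor, was at most 0.368 CPM in early and 1.49 to 2.99 CPM in late libraries (3.23 ± 0.44, adjusted p = 0.002955), a low level throughout. EPHA4, EPHB1 and EPHB3 also rose, by 1.04, 1.70 and 0.83 on the log2 scale.

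Among the ligands, 9 of 19 semaphorins tested rose and none fell. The membrane-bound class 6 semaphorins moved together: SEMA6A rose from 19.8 to 25.2 CPM in early to 57.5 to 78.6 CPM in late libraries (1.58 ± 0.14, adjusted p = 0.00171), SEMA6B by 2.08, SEMA6C by 2.39 and SEMA6D by 1.64. SEMA3A, the secreted repellent of NRP1-bearing axons, measured 7.02 and 5.54 CPM at E16, 8.90 and 9.99 CPM at E18, 19.3 and 24.6 CPM at E21 and 36.2 and 45.9 CPM at E28 (1.99 ± 0.31, adjusted p = 0.004148). SEMA3C, SEMA3E, SEMA3F and SEMA5A rose by 1.66, 1.81, 0.99 and 1.05. Outside the semaphorins, the ligands NTN3, NTN4, SLIT3, EFNA4 and EFNA5 rose by 0.56 to 1.75, and the receptors PLXNA3, PLXNA4, PLXNC1, ROBO1 and UNC5D by 1.06 to 1.87. ROBO1, the main slit receptor, went from 33.8 to 66.4 CPM in early to 90.7 to 142.6 CPM in late libraries. The calls of EFNA1, NTN4 and EPHB1 were each lost under 5 or more of the alternative settings.

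**Figure D1:**
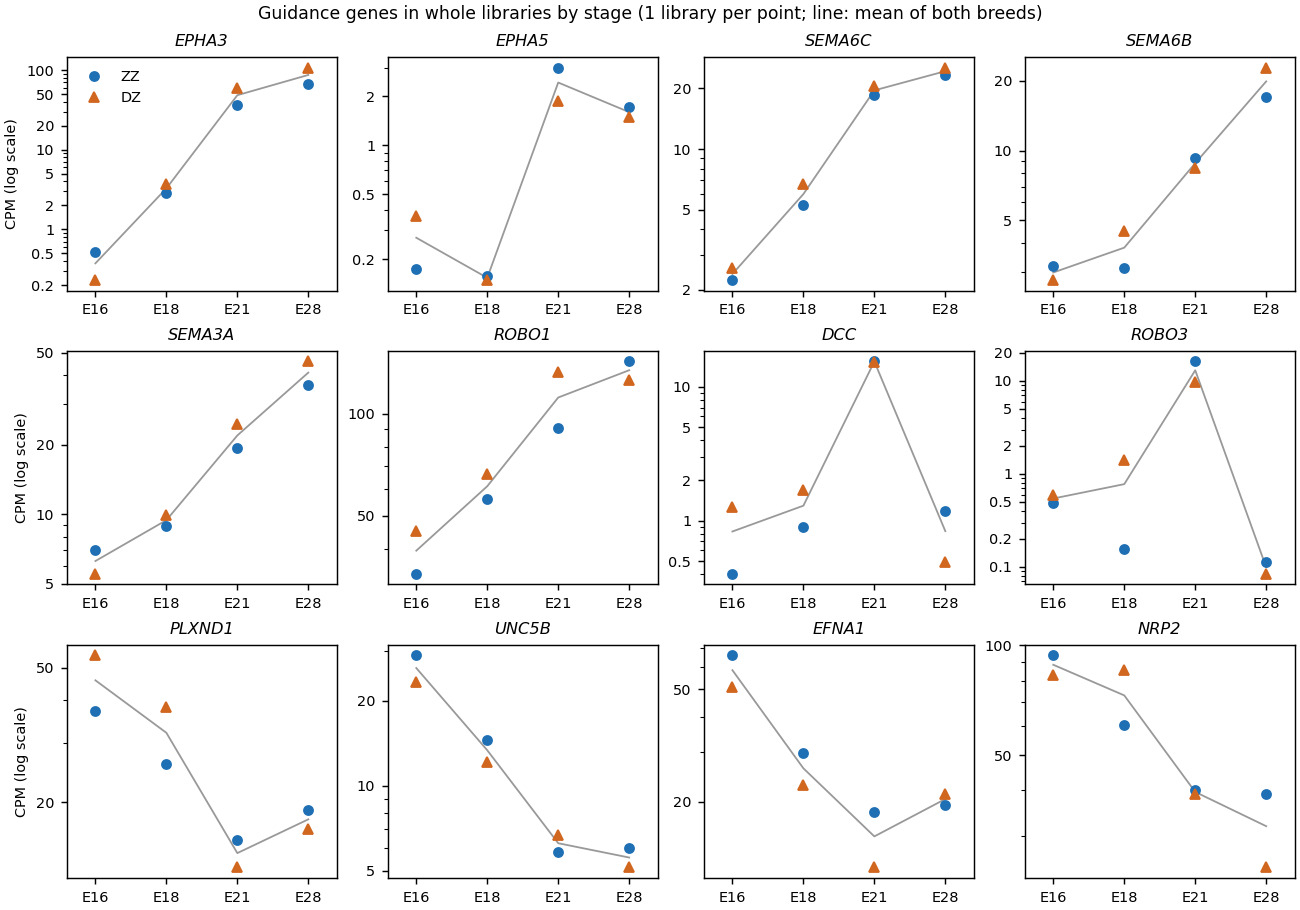
Levels of 12 guidance genes in whole libraries (CPM, log axis) at E16, E18, E21 and E28. Blue circles are ZZ and orange triangles DZ libraries, and the line joins the means of both. EPHA3 climbs from 0.233 to 107 CPM, DCC and ROBO3 peak at E21 in both breeds, and PLXND1, UNC5B, EFNA1 and NRP2 decline.

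The 4 members that fell were PLXND1 (a semaphorin receptor of vessels), UNC5B (a vascular netrin receptor), the ephrin EFNA1 and NRP2. PLXND1 measured 37.3, 54.4, 26.0 and 38.2 CPM in the early and 15.4, 12.8, 18.95 and 16.6 CPM in the late libraries, in order of stage with ZZ before DZ, an order kept in all lists of values that follow. The periods did not overlap, and the level fell by 1.27 (SE 0.23, adjusted p = 0.006488). UNC5B, EFNA1 and NRP2 fell by 1.73, 1.24 and 1.18. Endothelial cells became scarcer over the same time, from 5.58 to 13.3% of cells in early to 0.767 to 1.47% in late libraries. In summed libraries, fewer cells of a type and less RNA per cell cannot be told apart. Levels of the same genes in gated cells are given below, where the marker lists also changed with stage. The share of muscle-gated cells went the other way, from 0.0421 to 1.87% in early to 5.70 to 19.1% in late libraries, as did that of neuron-gated cells, from 0.938 to 3.21% to 4.54 to 20.1%. The epithelial list summed to 1943 to 7918 CPM in early and 4.46 to 108 CPM in late libraries, the cartilage list to 176 to 280.4 and 408 to 784 CPM, and the connective tissue list to 468 to 1309.9 and 1119 to 3544 CPM. The part of these cells in the changes of whole libraries was not tested. Cell Ranger's version changed between E16 and E18 and the tissue changed at E28, and neither can be told apart from stage.

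Between gates, 46 of the 47 members tested passed in at least 1 of 5 gates, where 76.5% of 10624 genes did. Over the 6 libraries from E18 to E28, which every gate had, mean levels were highest in neurons for 16 members, in endothelial cells for 12, in sclerotome for 10, in muscle for 8 and in crest for 1. This matched set was chosen after the values were seen, since muscle lacked the E16 libraries. Each gate was set against the mean of the other 4, with the library as a block. A member can thus be called higher in several gates at once, and higher does not mean highest. UNC5B, called higher in neurons below, averaged 7.04 CPM there and 46.6 CPM in endothelial cells over the 6 libraries.

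**Figure D2:**
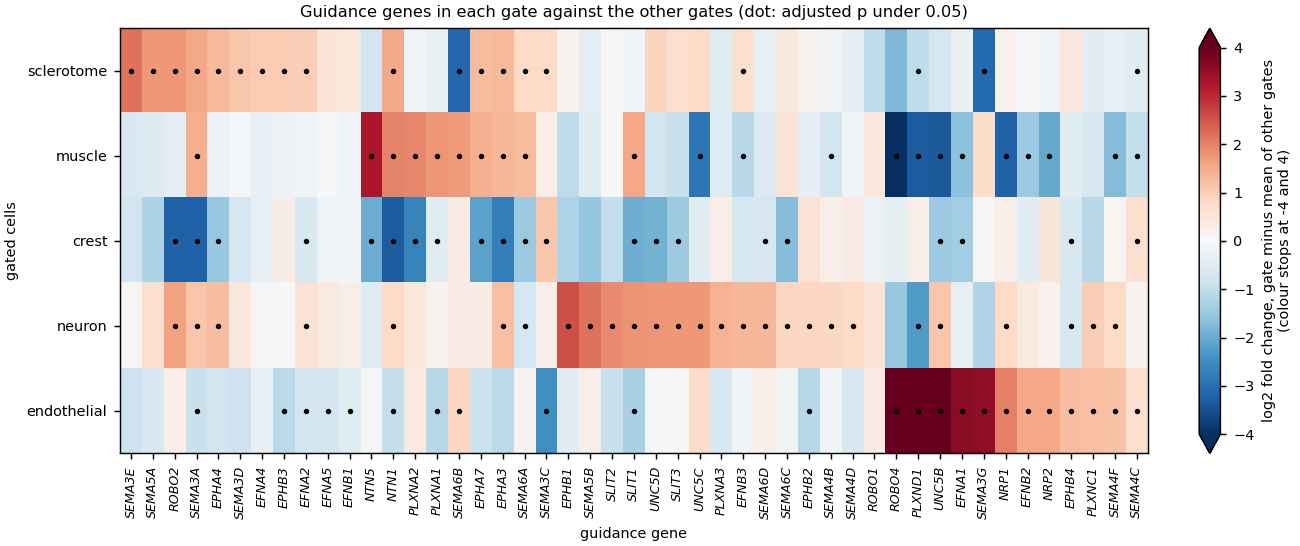
Log2 fold change of the 47 tested guidance genes (columns) in each gate against the mean of the other gates (rows). Red is higher, blue lower, and a dot marks an adjusted p under 0.05. The endothelial block from ROBO4 to SEMA4C and the neuron block from EPHB1 to SEMA4D stand out, while the crest row is mostly blue.

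Endothelial cells were set apart by a few vascular receptors and ligands. Of 47 members, 13 were higher and 10 lower than in the other gates, where 42.2% of 10624 genes passed (22.8% higher and 19.3% lower). ROBO4, the endothelial member of its family, measured 14.5 to 21.2 CPM in early and 84.5 to 198 CPM in late endothelial cells and at most 2.58 CPM in any library of another gate. It gave 970 UMIs in endothelial cells and 3, 1, 4 and 8 in sclerotome, muscle, crest and neurons, so it passed the filter through endothelial cells alone, its call (edgeR, adjusted p = 6.003e-24) follows from that, and no fold is given against levels near 0. PLXND1 stood at 171 to 779 CPM in endothelial cells and at 0 to 45.4 CPM elsewhere (6.34 ± 0.23, adjusted p = 1.807e-20). UNC5B at 30.9 to 68.7 CPM and EFNA1 at 74.2 to 229 CPM likewise did not overlap with any other gate (4.42 ± 0.27 and 3.60 ± 0.18). A PLXND1 UMI was found in 53.7% of endothelial and 1.05% of erythroid cells, or 31.8% and 0.586% after every cell was thinned to 2000 UMIs.

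Both neuropilins were also endothelial-rich: NRP1 by 2.02 and NRP2 by 1.54. Both sides of the EFNB2 and EPHB4 pair, which marks arteries and veins, were higher in endothelial cells than in every other gate of all 8 libraries, by 1.56 ± 0.18 and 1.22 ± 0.18. SEMA3G, a secreted ligand of NRP2, was higher by 3.54 and above every other gate in 7 of 8 libraries. PLXNC1, SEMA4C, SEMA4F and SEMA6B were higher by 0.64 to 1.20. PLXNC1 measured 12.5 to 29.6 CPM in the 3 endothelial libraries where the macrophage list summed to 421 to 794 CPM and 2.57 to 5.79 CPM in the other 5, where it summed to at most 9.38 CPM, and without the E28 libraries its call was lost (0.80, adjusted p = 0.0821). The part of macrophages in it was not tested. On the low side were SEMA3C (fell by 2.46 on the log2 scale), SLIT1, EPHB2, EPHB3, PLXNA1, NTN1, SEMA3A, EFNA2, EFNA5 and EFNB1. At a mitochondrial limit of 5% only 10 members passed in this comparison (12.0% of all genes), and EFNB1 turned to 0.0681 higher. That limit kept 924 of the 3523 endothelial cells, beside 43292 of all 74147 cells.

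ROBO4, PLXND1 and UNC5B ranked highest by endothelial fold change, though the size for ROBO4 rests on few UMIs in the other gates. In whole libraries these genes did not move together, since PLXND1 and UNC5B fell late against early and ROBO4 did not pass. The promoter windows of these 3 members are shown. Each is the 250 bases before the RefSeq gene start in Sscrofa11.1, 5' to 3' on the gene's strand. Capitals mark matches to AGGAAG or CGGAAG on either strand, letters that many ETS-family factors of endothelial cells bind. The windows lie at chr9:52097785-52098034 (minus strand, upstream of ROBO4), chr13:68996626-68996875 (minus strand, upstream of PLXND1) and chr14:74119805-74120054 (plus strand, upstream of UNC5B).
ROBO4: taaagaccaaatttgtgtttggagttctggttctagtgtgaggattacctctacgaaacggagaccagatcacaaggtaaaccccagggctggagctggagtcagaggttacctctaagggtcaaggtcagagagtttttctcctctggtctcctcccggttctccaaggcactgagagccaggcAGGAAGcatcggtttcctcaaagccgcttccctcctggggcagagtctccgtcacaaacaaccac
PLXND1: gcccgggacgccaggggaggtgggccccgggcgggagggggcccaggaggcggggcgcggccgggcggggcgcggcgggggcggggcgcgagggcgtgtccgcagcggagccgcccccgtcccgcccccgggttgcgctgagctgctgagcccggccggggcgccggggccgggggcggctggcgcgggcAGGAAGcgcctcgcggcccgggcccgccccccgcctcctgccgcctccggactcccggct
UNC5B: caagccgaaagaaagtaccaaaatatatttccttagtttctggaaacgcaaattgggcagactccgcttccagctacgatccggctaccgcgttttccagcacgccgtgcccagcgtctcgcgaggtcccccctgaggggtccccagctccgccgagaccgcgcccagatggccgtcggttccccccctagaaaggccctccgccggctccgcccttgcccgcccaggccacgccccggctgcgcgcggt
ROBO4 and PLXND1 each held 1 match and UNC5B none. Over the 13 endothelial-rich members, 6 windows (46.15%) held either word, against 27 of all 67 members (40.3%) and 36.9% of the windows of 19569 protein-coding genes. The share among endothelial-rich members was thus near that of all genes at this count. A match is a string of letters and not a bound site.

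Within endothelial cells 3 of the 4 genes that fell in whole libraries were higher in late libraries, and ROBO4 rose most among the vascular receptors. ROBO4 measured 21.2, 14.5, 15.6 and 18.0 CPM in the early and 95.9, 84.5, 159 and 198 CPM in the late libraries, with no overlap between periods (2.87 ± 0.28, adjusted p = 0.0005635). In whole libraries ROBO4 averaged 2.74 CPM early and 3.05 CPM late and did not pass. PLXND1, UNC5B and EFNA1 rose in the gate by 1.09 ± 0.25, 0.63 ± 0.16 and 0.84 ± 0.23. NRP2, which fell in whole libraries, did not pass in the gate (-0.20 ± 0.18, adjusted p = 0.4166). The endothelial marker list itself summed to 1891 to 2995 CPM in early and 3298 to 6166 CPM in late gated cells, and its part in these rises was not tested. NRP1 rose by 0.70, ROBO1 by 0.74, SEMA6A by 1.41, SEMA6B by 1.88, SEMA6C by 2.64 and SEMA6D by 1.31. In all, 13 of 44 members rose and none fell, where 26.2% of 10277 genes passed (13.5% higher and 12.6% lower). SEMA7A and its receptor PLXNC1 rose by 3.38 and 1.80. The macrophage list (5 markers) summed to 0.343 to 9.38 CPM in early endothelial cells and to 1.79, 421, 794 and 532 CPM in the late libraries, and PLXNC1 measured 2.69 CPM in the late library with 1.79 CPM of it and 12.5 to 29.6 CPM in the other 3. SEMA7A measured 15.2 CPM in that same library, within the 8.65 to 42.3 CPM of the other 3 late ones. The part of macrophages in the late rise of PLXNC1 was not tested either. The epithelial list also moved with stage in this gate, from 967 to 3664 CPM in early to 9.25 to 161 CPM in late libraries, and its part was not tested. At a mitochondrial limit of 5%, 3 members passed (6.8% of all genes), and without the E28 libraries 6 did (5.44%).

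**Figure D3:**
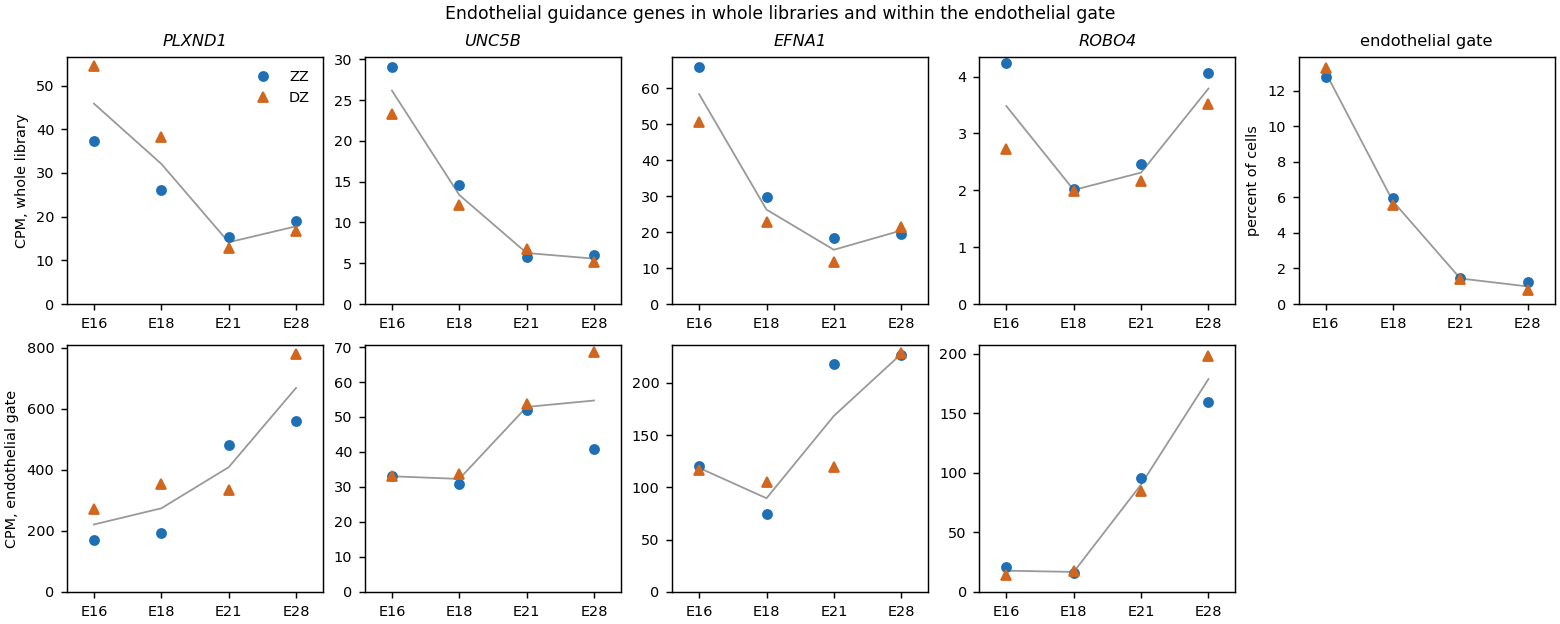
PLXND1, UNC5B, EFNA1 and ROBO4 (CPM, linear axes from 0) in whole libraries (upper row) and in endothelial-gated cells (lower row) by stage, with the endothelial share of cells at the right. Circles are ZZ, triangles DZ, lines join the means. PLXND1 falls from 37.3 to 54.4 CPM at E16 to 12.8 to 18.95 CPM late in whole libraries, while within the gate it goes from 171 to 356 CPM early to 335 to 779 CPM late.

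In neurons, 24 of 47 members were higher and 3 lower, where 39.4% of all genes passed (20.7% higher and 18.6% lower), with a median log2 fold change of 0.685 over members and -0.003 over all genes. All 3 slits were higher: SLIT2 by 1.89 ± 0.34, SLIT1 by 1.79 ± 0.27 and SLIT3 by 1.74 ± 0.28. SLIT2 ranged from 26.1 to 184 CPM in neurons and exceeded every other gate in 7 of 8 libraries. The slit receptor ROBO2 was higher by 1.61 ± 0.14, and all 3 tested netrin receptors by 1.10 (UNC5B) to 1.77 (UNC5D). EPH receptors EPHB1 (2.57), EPHA3 (1.22), EPHA4 (1.22) and EPHB2 (0.83) and the ephrins EFNB3 (1.33) and EFNA2 (0.57) were higher, as were PLXNA3 (1.38), PLXNC1, NRP1, NTN1 and 7 semaphorins, among them SEMA5B (2.18), SEMA6D (1.33) and SEMA3A (1.12). PLXND1, SEMA6A and EPHB4 were lower.

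The neuron gate was not uniform across stages. The neuron list summed to 699 to 2123 CPM in early and 3539 to 11514 CPM in late gated cells. The epithelial list summed to 1740 to 4936 CPM in early and 3.06 to 66.7 CPM in late ones. It exceeded the neuron list in E16-ZZ (4936 against 871 CPM), E16-DZ (2397 against 699 CPM) and E18-ZZ (4861 against 1360 CPM). These sums entered the neuron results above, and whether they held mainly neurons was not tested. Late against early, 13 of 45 members rose and none fell, where 18.0% of 10016 genes passed (9.37% higher and 8.66% lower). EPHA3 rose by 4.81 ± 0.90 and PLXNA4 by 3.005, with PLXNC1, NRP1 and SEMA6C at 2.42 to 2.50. The connective tissue list summed to 4666 and 2940 CPM in E28 neuron-gated cells and to 232 to 1167 CPM at the other stages. EPHA3 itself measured 85.6 and 124 CPM at E28 and 0 to 36.2 CPM before, and the part of this list was not tested. The EPHA3 call follows from these levels, and the size of its fold rests on few early UMIs. The count of calls was fragile: leaving out E16-ZZ, E16-DZ or E21-DZ left 5 members, E18-ZZ or E18-DZ 6 and E21-ZZ 8. In those fits 6.49 to 13.2% of all genes passed. Without both E16 libraries 0 of 53 members passed in edgeR (0.0% of all genes), with 17 at an unadjusted p under 0.05. Without the E28 libraries 29 of 47 did, where 40.4% of all genes passed, 25 higher and 4 lower (UNC5B, EPHB4, EFNA1 and EFNB1).

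DCC, the attractive netrin receptor, and ROBO3, the receptor that keeps commissural axons open to the midline, were highest at E21. In whole libraries DCC measured 15.5 and 15.4 CPM at E21 and 0.403 to 1.70 CPM at every other stage, and ROBO3 16.2 and 9.82 CPM at E21 and 0.0849 to 1.40 CPM otherwise. Both breeds agreed in this, and neither gene's E21 libraries overlapped with any other. Neuron-gated cells made up 20.1 and 10.1% of cells at E21 and 0.938 to 5.91% at other stages, and a change in the kinds of neuron in the gate was not tested. The late group joins E21 to E28, and the late against early test in whole libraries did not pass for DCC (edgeR, adjusted p = 0.06559). The part of this grouping in the missed call was not tested. In neuron-gated cells DCC reached 58.0 and 123 CPM and ROBO3 76.6 and 96.7 CPM at E21, against 1.48 to 16.6 CPM and 0 to 29.8 CPM at other stages. Counts of both lay below the filter of the gate comparison. With no filter DCC was higher in neurons by 4.78 ± 0.36 (edgeR, adjusted p = 6.16e-13). A DCC UMI was found in 819 neuron-gated cells and in 26 sclerotome, 14 muscle, 6 crest and 13 endothelial cells. ROBO3 was called too, but no fold is given against levels near 0. Its UMIs were found in 397 neuron-gated cells and in 1 sclerotome, 1 muscle, 7 crest and 16 endothelial cells. These calls add no support beyond the levels above. A ROBO3 UMI was found in 8.28% of neuron-gated cells and in 0 of 950 erythroid cells. Only 38 (ZZ) and 54 (DZ) of these erythroid cells came from E21, where ROBO3 was high, so the others are little measure of its background. A planned split of the neurons by MNX1 or SLC18A3 (motor neurons) and by POU4F1 was not possible with 42 and 3 cells.

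Muscle cells raised 10 of 47 members and lowered 12, where 35.3% of all genes passed (17.5% higher and 17.8% lower). Only 4 muscle-gated cells were found in each E16 library, so 6 libraries entered and late was not tested against early. NTN5, a netrin-family ligand, was highest at E18 with 105 and 128 CPM, then 16.6 and 18.5 CPM at E21 and 37.9 and 23.5 CPM at E28, above every other gate in all 6 libraries (3.28 ± 0.33, adjusted p = 2.089e-09). NTN1 was higher by 1.97 and the class 6 semaphorin receptors PLXNA1 and PLXNA2 by 1.77 and 1.92, with their ligands SEMA6A (1.26) and SEMA6B (1.69). SLIT1, SEMA3A, EPHA7 and EPHA3 were higher by 1.32 to 1.56. Muscle cells were low in NRP1 at 0.831 to 9.17 CPM (fell by 3.23), NRP2 (fell by 2.05), UNC5C (fell by 2.88) and the vascular genes. NRP2 nonetheless measured 59.8 and 88.1 CPM in E18 muscle cells and 3.21 to 8.30 CPM later. In the same cells the epithelial list summed to 808 and 597 CPM at E18 and 1.15 to 27.3 CPM later, and the connective tissue list to 181 and 129.7 CPM and 759 to 1355 CPM. The neuron list went from 24.5 and 24.1 CPM at E18 to 407 and 361 CPM at E21 and 147.6 and 71.2 CPM at E28, and the cartilage list from 254 and 256 CPM to 49.5 to 156 CPM. The neural progenitor list summed to 1642 and 1753 CPM at E18 and 880.0 to 1480 CPM later, above its 105 to 639 CPM in the other gates. Of its 3 markers in the files OLIG2 was at 0 in muscle cells, and another, NES, is also known from muscle precursors. The cardiac list summed to 373 and 495 CPM in muscle cells at E18 and 212 to 367 CPM later, beside 0.671 to 251 CPM in the other gates. The part of these lists in the muscle calls and in the stage differences of NRP2 and NTN5 was not tested.

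Within the muscle gate, cells with a UMI of MYOG or MYMK, genes of differentiating and fusing myocytes, were set against cells with neither in the same 6 libraries. Here 24 of 34 members passed, 8 higher and 16 lower, where 36.0% of 9154 genes passed (17.5% higher and 18.5% lower), and the median log2 fold change was -0.337 over members and -0.031 over all genes. SEMA3C measured 69.5, 91.7, 54.6, 41.7, 29.2 and 25.2 CPM in positive cells (from E18 to E28) and 11.8, 9.57, 18.2, 17.9, 9.16 and 10.4 CPM in negative cells. Every positive value exceeded every negative one (1.66 ± 0.19, adjusted p = 1.342e-05). PLXNA1 was higher in positive cells in all 6 libraries, at 160.3, 132.8, 76.0, 92.7, 53.5 and 51.1 CPM against 55.9, 49.5, 30.1, 35.3, 20.8 and 19.04 CPM (1.40 ± 0.09, adjusted p = 3.268e-08). SEMA6A, SEMA6B, SEMA6C, SEMA6D and PLXNA2 rose by 0.70 to 1.44, and SEMA3D by 0.90. All 4 class 6 semaphorins and both of these plexins were thus higher in MYOG or MYMK cells.

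The 16 lower genes included netrins, slits, ephrins and 2 semaphorins. NTN5 measured 32.1, 20.6, 6.12, 8.33, 18.5 and 10.1 CPM in positive and 166, 225, 27.6, 26.3, 54.9 and 40.4 CPM in negative cells, lower in 6 of 6 libraries (fell by 2.10, SE 0.18, adjusted p = 1.161e-06). NRP2 fell by 2.11, and at E18 the split was 16.0 and 23.7 CPM against 96.5 and 145 CPM. All 3 slits (SLIT2 by 1.13, SLIT1 by 1.03 and SLIT3 by 0.90) and their receptor ROBO2 (by 1.01) fell together. Also lower were SEMA3A, SEMA4D, NTN1, EPHA4, EPHB3 and the ephrins EFNA2, EFNA4, EFNB1, EFNB2 and EFNB3, by 0.35 to 0.96.

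**Figure D4:**
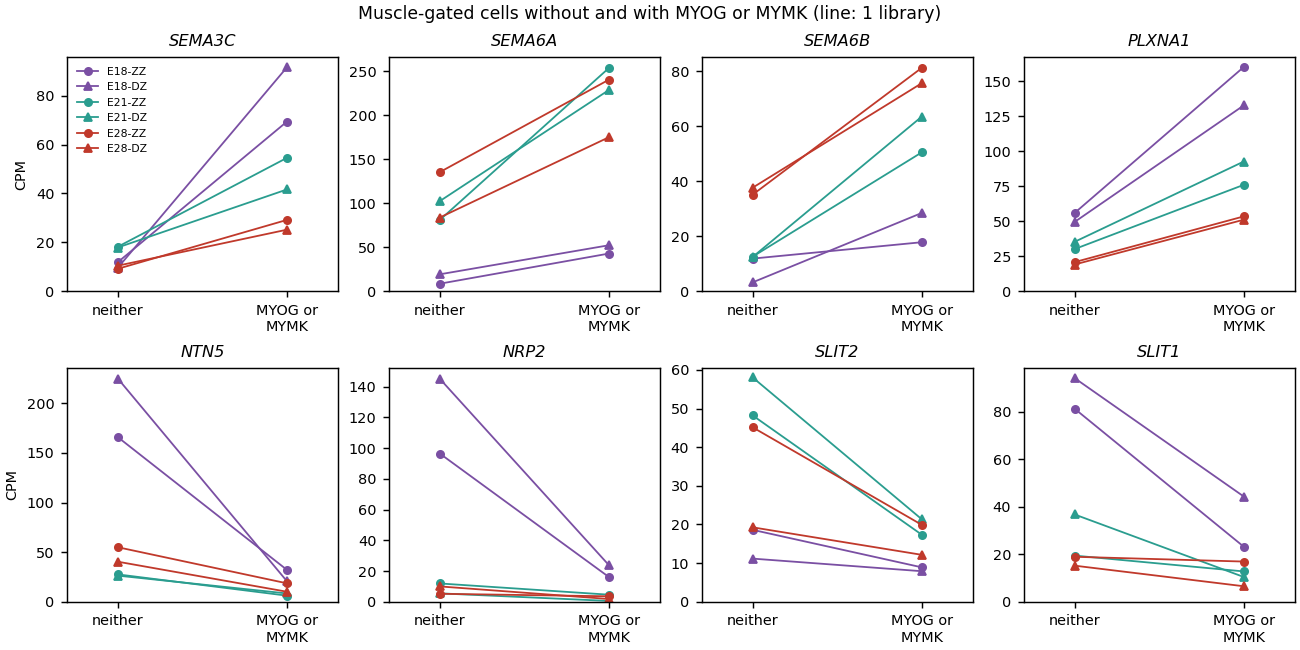
CPM of 8 guidance genes in muscle-gated cells with neither MYOG nor MYMK (left) and with either (right); each line is 1 of 6 libraries, circles ZZ and triangles DZ, coloured by stage. SEMA3C, SEMA6A, SEMA6B and PLXNA1 rise in every library, and NTN5, NRP2, SLIT2 and SLIT1 fall in every library.

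Sclerotome cells, through which motor axons and crest cells pass, raised 15 of 47 members and lowered 4, where 24.4% of all genes passed (11.4% higher and 13.0% lower). The repellent ligand SEMA3A was higher by 1.56, and SEMA3E, the ligand of PLXND1, by 2.16 ± 0.36, while PLXND1 itself was lower. SEMA5A (1.74), SEMA3D (1.12), SEMA3C (0.81) and SEMA6A (0.78) were the other raised semaphorins. ROBO2 at 26.8 to 77.4 CPM was higher by 1.72 ± 0.15. The 3 EPHA receptors tested, EPHA3, EPHA4 and EPHA7, were all higher than the mean of the other gates, by 1.25 to 1.305. Over the 6 libraries from E18 to E28, EPHA7 averaged 39.1 CPM in sclerotome and 53.2 CPM in muscle. EPHA4 averaged 53.1 CPM in sclerotome and 57.6 CPM in neurons, and EPHA3 52.2 and 44.9 CPM. Also higher were NTN1 (1.53) and the ephrins EFNA2, EFNA4 and EFNB3. EFNA4 and EPHB3 exceeded every other gate in all 8 libraries (1.02 ± 0.13 and 1.01 ± 0.12). SEMA6B was lower (fell by 3.15 on the log2 scale). SEMA3G was called lower too, with a UMI in only 7 of 3426 sclerotome cells, and no fold is given for levels near 0. The calls of SEMA4C and PLXND1 were lost under 11 and 9 alternatives.

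Within the sclerotome, guidance genes changed with stage in both directions, with 15 members higher and 5 lower of 39 in late libraries, where 22.1% of 9464 genes passed (11.5% higher and 10.6% lower). The repulsive netrin receptor UNC5C was at 0, 0, 2.51 and 3.29 CPM in the early and 29.2, 30.3, 36.2 and 51.6 CPM in the late libraries (3.82 ± 0.37, adjusted p = 6.393e-05). EPHA3 was at most 2.43 CPM early and 26.8, 27.4, 90.5 and 165 CPM late (5.48 ± 0.80). UNC5C and EPHA3 both passed the filter through the late libraries alone, so their calls follow from these levels. The size of either fold rests on few early UMIs. The E16 sums were small, at 75 (ZZ) and 85 (DZ) cells with 439024 and 401199 UMIs. ROBO1 and its ligands SLIT2 and SLIT3 rose by 1.99, 1.12 and 1.11. The ligands NTN1, NTN5 and SLIT1 fell by 2.18, 2.64 and 2.13, NRP2 by 2.04 and EPHA4 by 0.97. NTN1 measured 58.4, 23.3, 18.3 and 28.6 CPM early and 5.45, 6.69, 8.72 and 5.25 CPM late, with no overlap. The epithelial list summed to 198 to 912 CPM in early and 2.68 to 37.9 CPM in late sclerotome cells, the cartilage list to 455 to 606 and 754 to 1409 CPM and the connective tissue list to 525 to 1362 and 1169 to 2928 CPM, and their part was not tested. Without E18-ZZ 13 members passed (14.7% of all genes), and without both E16 libraries 12 did (9.82%).

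Cranial and caudal sclerotome differ in whether axons may enter, and UNCX marks the caudal and TBX18 the cranial side. TBX18 was found with no UNCX in only 37 sclerotome cells and in at most 12 of any library, so the planned comparison was not possible. UNCX cells were instead compared with sclerotome cells that had neither gene (995 and 2236 cells in 6 libraries), a choice made once these numbers were seen. Cells with no UMI of either gene can be of either side, so this is not caudal against cranial sclerotome. Of 32 members, 3 were lower and 0 higher, where 1.94% of 8286 genes passed (0.797% higher and 1.15% lower). At an unadjusted threshold of 0.05, 7 members passed, where 10.5% of all genes did. NRP2 measured 23.9, 42.8, 11.3, 15.9, 15.0 and 27.2 CPM with UNCX and 98.2, 110.0, 23.7, 35.1, 50.7 and 21.4 CPM without, lower in 5 of 6 libraries (fell by 1.48, SE 0.16, adjusted p = 1.347e-07). SLIT2 fell by 0.89 ± 0.17 and EFNA5 by 0.55 ± 0.12, each lower in 6 of 6 libraries. DESeq2 called 1 member.

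In neural crest cells most called members were lower. Of 47 members 2 were higher and 19 lower, where 22.7% of all genes passed (11.0% higher and 11.7% lower), and the median log2 fold change was -0.668 over members and -0.021 over all genes. The 2 higher ones were SEMA3C (1.12 ± 0.27) and SEMA4C (0.64 ± 0.15). The lower ones included ROBO2 at 0 to 7.41 CPM against 8.04 to 78.5 CPM in the other gates (fell by 3.23, SE 0.24), NTN1 (by 3.34), SEMA3A (by 3.24), EPHA3 (by 2.76) and PLXNA2 (by 2.68). NRP1 and NRP2, the receptors by which crest cells sense class 3 semaphorins, were measured at 28.4 ± 18.2 and 72.0 ± 22.5 CPM (SD, n = 8), and neither passed. SEMA3B lay below the filter. With no filter it was higher in crest by 2.76 ± 0.35 (adjusted p = 3.89e-07), with 15.2 to 46.8 CPM in late and 1.27 to 9.63 CPM in early crest cells.

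In crest cells ROBO1 fell steeply with stage. It measured 75.9, 112, 105 and 129.7 CPM in the early and 19.1, 20.6, 10.2 and 1.23 CPM in the late libraries (fell by 2.89, SE 0.35, adjusted p = 7.248e-05). UNC5C and EPHA4 fell by 1.92 and 2.03. SLIT2, below the filter here, was at 85.2, 36.6, 7.33 and 14.8 CPM early and 0.897 to 8.78 CPM late. Rising were SEMA3B (3.34), PLXND1 (2.94), SEMA6B (2.70), SEMA6A (2.27), SEMA3C (1.85), NRP1 (1.44), SEMA4D, EPHB2 and EPHB3. SEMA3B passed the filter here through its late levels, given above, so its call follows from them. The 9 higher and 3 lower of 23 tested compare with 24.9% of 7631 genes (13.4% higher and 11.5% lower). At a mitochondrial limit of 5%, which kept 482 of the 1417 crest cells, ROBO1, SEMA6A and SEMA3C were the 3 that passed (12.6% of all genes). With stricter gates 6 did (22.9%). The neuron list summed to 425 to 800.2 CPM in early and 95.7 to 171 CPM in late crest cells and the epithelial list to 318 to 1356 and 5.38 to 30.8 CPM, and their part in these changes was not tested.

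Across the 4 gates where stage could be tested, 37 of the 52 members tested in any passed in at least 1 (71.2%), where 44.8% of 11020 genes did: 25 in 1 gate, 5 in 2, 5 in 3 and 2 in 4, or 48.1, 9.62, 9.62 and 3.85% of members beside 25.1, 10.7, 5.59 and 3.47% of all genes. The 2 genes that passed in all 4 were SEMA6A, higher in each, and ROBO1. ROBO1 and UNC5C were the only members with calls in opposite directions. A joint fit of all 4 gates, with the library as a block and added once these calls were seen, tested the difference itself. Of 51 members, 7 passed for crest minus sclerotome (4.0% of 10628 genes), 9 for neuron minus sclerotome (8.2%), 7 for endothelial minus sclerotome (5.25%), 5 for crest minus endothelial (5.82%), 8 for crest minus neuron (9.87%) and 6 for neuron minus endothelial (11.4%). The counts against sclerotome include ROBO4, and those of crest and neuron also SEMA3G. ROBO4 had a UMI in only 3 sclerotome, 4 crest and 8 neuron-gated cells, and SEMA3G in 7 sclerotome cells. These calls follow from levels near 0 and are not read as support. The late against early change of ROBO1 was lower in crest than in sclerotome by 4.95 (log2 difference -4.95 ± 0.46, adjusted p = 2.589e-07), than in neurons (-3.83 ± 0.42) and than in endothelial cells (-3.64 ± 0.42). For UNC5C the crest minus sclerotome difference was -5.93 ± 0.80 (adjusted p = 4.196e-05), a size that rests on few early UMIs in sclerotome. EPHA3 lay below the filter in crest, at 0 to 7.32 CPM, where with no filter its late against early difference was 2.68 ± 0.89 (adjusted p = 0.0192). Its change passed in none of the 6 differences between gates (adjusted p from 0.4978 to 0.872). In late erythroid cells EPHA3 gave 8 UMIs, or 4.86 CPM (exact Poisson 95% interval 2.10 to 9.58), below the 10.6 to 22.1 CPM of late endothelial cells and far below late sclerotome. The 4 late crest libraries, at 2.93 to 7.32 CPM, all lay inside that interval. The interval covers only the counting error of 8 UMIs, so it cannot settle whether EPHA3 in crest exceeded background. Its difference there is not read as a rise.

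**Figure D5:**
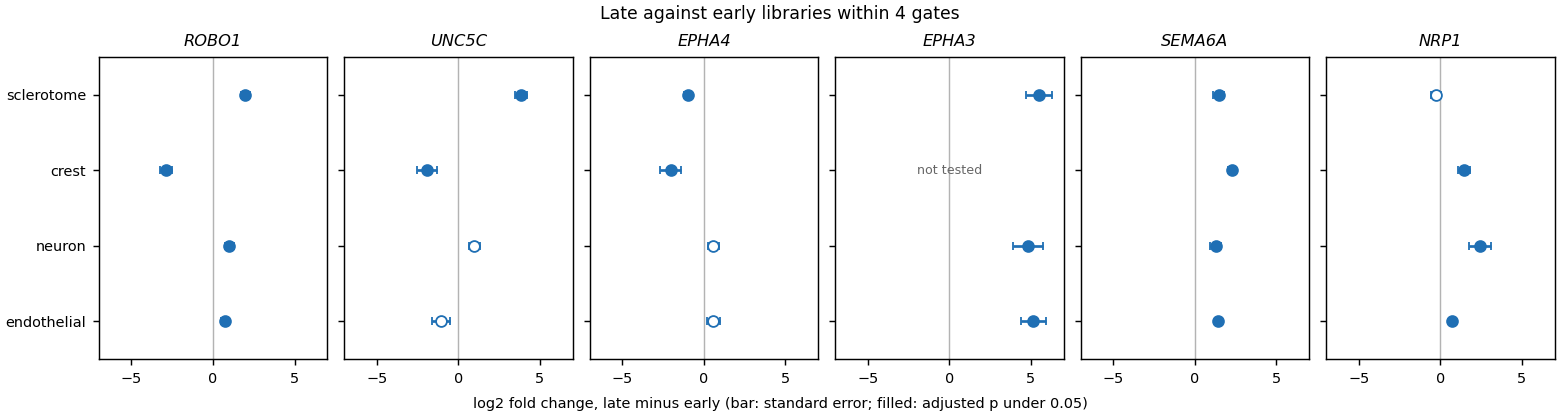
Log2 fold change of late against early libraries for 6 guidance genes within sclerotome, crest, neuron and endothelial gates. Bars are standard errors, filled points passed the adjusted threshold and open ones did not. ROBO1 sits at -2.89 in crest and between 0.74 and 1.99 in the other gates, SEMA6A is above 0 in all 4, and EPHA3 lies between 4.81 and 5.48 in the 3 gates where it was tested. The size of the EPHA3 folds rests on few early UMIs.

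For ligands and receptors that bind each other, the gate with the highest mean over the 6 libraries from E18 to E28 is given as a description, with no test of whether pairs differ from other genes in this. SEMA3E was highest in sclerotome (15.9 CPM) and its receptor PLXND1 in endothelial cells (451 CPM). SEMA3F was highest in sclerotome (6.11 CPM) and NRP2 in endothelial cells (134.8 CPM), and SLIT3 in neurons (58.6 CPM) and ROBO4 in endothelial cells (95.2 CPM). In these 3 pairs each gene's highest gate exceeded its second by more than the SD of either. SEMA3A was highest in sclerotome (27.8 CPM, muscle 25.5) and NRP1 in endothelial cells (77.7 CPM). NTN1 was highest in muscle (17.9 CPM), and DCC (34.8 CPM) and UNC5C (37.3 CPM) in neurons. All of these lay within that spread, which is taken across stages and ignores that gates share libraries. For DCC the spread holds the E21 peak (SD 47.9 CPM). In each of the 8 libraries DCC was higher in neurons than in every other gate measured. EFNB1 was highest in sclerotome (92.1 CPM) and EPHB2 in neurons (15.5 CPM), also within it.

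Of the pairs with the same highest gate, EFNB2 and EPHB4 (89.2 and 57.2 CPM) and EFNA1 and EPHA2 (161.9 and 2.73 CPM) were highest in endothelial cells, by more than the SD of either gate. SEMA7A and PLXNC1 (13.7 and 11.3 CPM, endothelial), SLIT2 and ROBO1 (89.5 and 112.9 CPM, neurons) and EFNA5 and EPHA3 (58.4 and 52.2 CPM, sclerotome) lay within the spread. SEMA6A and PLXNA2 were highest in muscle (128.7 and 32.6 CPM), beyond the spread for PLXNA2 only. SEMA4D was highest in neurons (14.5 CPM), within the spread, and its receptor PLXNB1 was at most 0.195 CPM in every whole library.

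Of 54 other genes of the pathway (adhesion partners, cytoskeletal effectors and kinases), 25 were higher and 7 lower of 49 tested in neurons, where the collapsin response mediators DPYSL3, DPYSL4, DPYSL5 and CRMP1, which pass on semaphorin signals, rose by 2.41 to 3.96. These calls were 65.3% of the list beside 39.4% of all genes. In MYOG or MYMK cells 12 rose and 7 fell of 48 (39.6% beside 36.0%), led by ABLIM3 (3.54) and MICAL2 (2.06), actin regulators. Late whole libraries raised 16 and lowered 4 of 53 (37.7% beside 34.2%). Of 49 tested between gates, endothelial cells raised 17 and lowered 19 (73.5% beside 42.2%), crest raised 12 and lowered 11 (46.9% beside 22.7%), sclerotome raised 4 and lowered 20 (49.0% beside 24.4%) and muscle raised 6 and lowered 9 (30.6% beside 35.3%). Within gates, late cells raised 6 and lowered 6 of 44 in sclerotome (27.3% beside 22.1%), 12 and 4 of 43 in crest (37.2% beside 24.9%), 16 and 1 of 50 in neurons (34.0% beside 18.0%) and 14 and 3 of 46 in endothelial cells (37.0% beside 26.2%). UNCX cells raised 0 and lowered 2 of 41 in edgeR (4.9% beside 1.94%), with 4 at an unadjusted 0.05, a share no higher than the 10.5% of all genes.

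Between breeds, 0 of 61 members passed in edgeR with the stage as a block, as did 0 of all 14339 genes (0.0%). At an unadjusted p under 0.05 stood 4 members and 890 genes (6.21%), and the lowest adjusted p of any gene was 0.083. The member nearest to a call was NTN3, higher in DZ in 4 of 4 stages at 0.446, 0.540, 1.21 and 2.08 CPM against 0.173, 0.140, 0.287 and 0.683 CPM in ZZ (1.75 ± 0.28, adjusted p = 0.5549), and DESeq2 called it. Of the pathway's other genes 0 of 53 passed in edgeR and 3 at an unadjusted 0.05.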

How the data were processed

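Single cells of pig somites (E16, E18 and E21) and myotome (E28) were profiled with 10x 3' v3 chemistry in 8 libraries. Per the labels, the authors aligned reads and counted UMIs with Cell Ranger (3.1.0 for E16 and 3.0.2 for the others), and the deposited values are unnormalized counts per gene and filtered barcode. Barcodes with under 200 genes, over 30000 UMIs or over 10% mitochondrial UMIs were removed, as were 8247 doublets called by score at 0.8% per 1000 barcodes. A gate needed 3 UMIs from 2 of its markers (sclerotome, 2 UMIs including PAX1), and cells in several gates were left out (624). Counts were summed per library and gate where at least 20 cells were found and tested with edgeR 4.0.16 (quasi-likelihood, TMM, limma 3.58.1, R 4.3.3), with Benjamini-Hochberg adjustment over all genes tested and a threshold of 0.05. Gate, UNCX and MYOG or MYMK comparisons had the library as a block, the breed comparison had the stage, and late against early had the breed as a term. DESeq2 1.42.0 was an alternative. Cells were handled with Python 3.11.15, scanpy 1.11.5, numpy 2.4.6 and scipy 1.17.1. Scripts were tested on simulated data. The members and lists were chosen with earlier results of these data known. Named genes were those past the threshold in order of fold change, plus both sides of 14 ligand and receptor pairs. Depth was 39887814 to 57796312 UMIs per library, and Poisson intervals cover counting error only. A division of the E21 neurons by further marker genes is not reported here.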

Additional observations from a re-analysis of the deposited data

Results flagged for a closer look

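A total of 28 groups of 4 libraries were examined for 1 library far from the others, of which chance gives about 1 in 20. EPHA5 in E16-DZ, at 0.3681 CPM, lay above the other early libraries with a gap of 0.892 of the range, past Dixon's 95% critical value for 4 samples. NRP2 in E28-DZ, at 24.5744 CPM, lay below the other late libraries with a gap of 0.932 of the range.

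Late against early changes differed between gates in a joint fit with the library as a block (edgeR over 10628 genes), which was added once the calls in single gates were seen. Values are log2 differences of the change, with 51 members tested in each of 6 differences. The change of ROBO1 was lower in crest than in sclerotome (-4.95 ± 0.46, adjusted p = 2.589e-07), neurons (-3.83 ± 0.42, adjusted p = 1.51e-06) and endothelial cells (-3.64 ± 0.42, adjusted p = 5.069e-06). UNC5C, whose rise was largest in sclerotome, stood at -5.93 in crest, -5.22 in endothelial cells and -3.01 in neurons against sclerotome, at -2.93 for crest minus neuron and at 2.21 for neuron minus endothelial. Its early sclerotome levels were near 0, so the size of its differences from sclerotome rests on few UMIs.

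Other members that passed against sclerotome were, in crest, SLIT2 (-4.50), NRP2 (2.31) and PLXND1 (3.93), in neurons, UNC5B (-3.20), EFNA1 (-1.57), EFNB2 (1.03), NTN1 (1.78), NRP2 (2.30) and NRP1 (2.65), and in endothelial cells, SLIT3 (-2.26), NRP2 (1.93), PLXND1 (1.95), NTN5 (3.26) and SEMA7A (4.67). ROBO4 (7.40 in crest, 6.33 in neurons and 5.95 in endothelial cells) and SEMA3G (8.03 in crest and 6.83 in neurons) passed too, but both were at 0 in all late sclerotome libraries, so the size of these differences depends on the prior count and is no bound. The calls of ROBO4 and SEMA3G follow from these levels and are not read as support. Crest minus endothelial passed for SEMA7A (-3.82), EPHA4 (-2.61), PLXND1 (1.98) and EPHB2 (2.23). Crest minus neuron passed for SLIT2 (-4.56), EPHA4 (-2.44), EPHB2 (1.43), SEMA6B (2.52), PLXND1 (3.28) and SEMA3B (3.73). Neuron minus endothelial passed for SEMA7A (-3.26), EFNA1 (-2.03), UNC5B (-1.75), NRP1 (1.73) and SLIT3 (2.33).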

How the results depend on the processing

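Across 142 gene results named by rule, 2208 alternative values were computed. Of these 2059 kept direction and side of the threshold, 148 lost the call and 1 reversed (EFNB1 in endothelial cells, 0.0681 at a mitochondrial limit of 5%), and 92 results never lost the call. Counts of called members moved by over 1.5 times as follows, and the cause was not tested. Without the E16 libraries, whole libraries gave 10 in place of 28, late sclerotome 12 in place of 20 and late neurons 0 in place of 13. Without the E28 libraries, late neurons gave 29 and late endothelial cells 6 in place of 13. At a mitochondrial limit of 5%, late crest gave 3 in place of 12, late neurons 8, late endothelial cells 3 and the endothelial gate 10 in place of 23. Stricter gates gave 6 for late crest and 6 for late neurons, and no filter on low counts gave 19 for late crest. DESeq2 gave 1 for UNCX in place of 3 and 1 for breed in place of 0. Leaving out each library in turn gave 20 to 29 members for whole libraries, 13 to 21 for late sclerotome, 9 to 13 for late crest, 5 to 15 for late neurons, 9 to 13 for late endothelial cells, 15 to 21 for the sclerotome, 19 to 29 for the muscle, 15 to 22 for the crest, 19 to 31 for the neuron and 19 to 27 for the endothelial gate, 20 to 24 for MYOG or MYMK, 2 to 3 for UNCX and 0 to 0 for breed. The labels carry no replicate numbers, so no block by replicate number was fitted, and pairing came only from the library, stage and breed terms of the fits. Members at a few UMIs per library, among them EPHA6, EPHA8, EPHA10, PLXNB1, PLXNB3 and SEMA4G, were below the filter at this depth.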
